A study of Homo sapiens with 12 samples.

Results

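The 35 genes described here encode the subunits of the hypoxia-inducible factors (HIF), the enzymes that sense oxygen and mark HIF for destruction, and HIF target genes outside glycolysis. They were taken by symbol from a written list, out of 54553 genes in the deposited tables, and all 35 were among the 18047 genes with enough reads to test. Transcripts were measured by RNA sequencing of Caco-2, a human colorectal adenocarcinoma line labelled wild type, in 12 libraries from 4 groups of 3. The groups were depleted medium with bafilomycin A1, depleted medium with vehicle, rich medium with bafilomycin A1, and rich medium with vehicle. Bafilomycin A1 (BafA1), which blocks the V-ATPase and so keeps lysosomes from acidifying, was given at 100 nM for 48 h. Depleted medium was a DMEM with 1% serum, 0.2 mM glutamine and 0.1 g/L glucose, used for 48 h, and the growth medium was an EMEM with 20% serum, 1 g/L glucose and 2 mM glutamine. The labels do not say whether the rich-medium groups were kept in exactly that growth medium, so base medium, serum, glucose and glutamine cannot be told apart in the depletion comparisons. Pyruvate (1 mM) and non-essential amino acids (0.1 mM) were in both. The cultures stood in air with CO2, and no group is labelled as kept at low oxygen. The labels do not say whether replicates were separate cultures, and p-values therefore measure only how far these samples vary, possibly for technical reasons.

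HIF is a transcription factor of an oxygen-regulated alpha subunit, HIF1A or EPAS1 (HIF-2 alpha), and the constant partner ARNT. With oxygen present, the prolyl hydroxylases EGLN1, EGLN2 and EGLN3 modify the alpha subunit, VHL binds the modified form and directs it to the proteasome, and HIF1AN blocks its coactivator contact. The hydroxylases also need iron and 2-oxoglutarate, and HIF is controlled mostly through protein stability, which RNA counts do not measure. In the gut epithelium HIF is known for roles in barrier function, iron uptake and adaptation to low oxygen.

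HIF binds the core ACGTG in the promoters and enhancers of its targets, the HIF response element. Of the 35 genes, 27 had a promoter in the RefSeq table (GRCh38.p14, 250 bases before to 50 after each annotated start, 37 starts). ACGTG on either strand, with overlapping matches counted as 1 site, was found in 16 of these 27 genes (59.3%), in 31.1% of 12548 tested genes with a promoter and in 24.9% of all 27305 genes of the table. A pair or more of sites was found in 8 genes (29.6%), against 5.91% of the tested genes. GCGTG, another form of the core, was nearly as frequent elsewhere, at 59.3% of the HIF pathway genes and 55.8% of the tested genes. The palindrome CACGTG, which holds ACGTG on both strands and is the E-box that BHLHE40 and other factors bind, was in 25.9% of the HIF pathway genes and 12% of the tested genes. The sequences are those of 4 genes called higher with BafA1 in rich medium (BHLHE40, BNIP3, LOX, PDK1) and, for contrast, of CA12 and EGLN3, which were not and whose windows hold no ACGTG. EPAS1 and KDM3A, not shown, were also called higher there, and their windows hold no ACGTG either. Each sequence is the 250 bases before a start, 5′ to 3′ on the gene's strand, with ACGTG or its complement CACGT in capitals. GCGTG is not marked. The searched window of CA12, which runs to 50 bases after the start, holds 2 GCGTG sites, and that of EGLN3 holds 0. They lie at chr3:4979187-4979436 (plus strand) for BHLHE40, chr10:131981924-131982173 (minus) for BNIP3, chr5:122078260-122078509 (minus) for LOX, chr2:172555840-172556089 (plus) for PDK1, chr15:63381847-63382096 (minus) for CA12 and chr14:33951075-33951324 (minus) for EGLN3.
BHLHE40: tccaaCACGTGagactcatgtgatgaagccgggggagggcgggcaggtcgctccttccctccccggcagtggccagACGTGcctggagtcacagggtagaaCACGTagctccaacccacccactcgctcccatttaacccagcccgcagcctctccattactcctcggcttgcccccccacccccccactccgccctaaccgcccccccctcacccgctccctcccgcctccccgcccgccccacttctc
BNIP3: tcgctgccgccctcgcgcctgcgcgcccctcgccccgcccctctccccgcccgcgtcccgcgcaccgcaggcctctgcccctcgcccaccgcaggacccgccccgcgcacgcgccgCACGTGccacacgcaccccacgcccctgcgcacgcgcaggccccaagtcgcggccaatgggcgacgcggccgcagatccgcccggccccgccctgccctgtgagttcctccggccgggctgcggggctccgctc
LOX: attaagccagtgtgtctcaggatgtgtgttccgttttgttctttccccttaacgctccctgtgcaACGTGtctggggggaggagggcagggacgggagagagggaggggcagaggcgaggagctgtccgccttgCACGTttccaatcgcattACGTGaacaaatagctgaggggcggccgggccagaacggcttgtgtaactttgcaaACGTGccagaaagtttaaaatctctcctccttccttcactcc
PDK1: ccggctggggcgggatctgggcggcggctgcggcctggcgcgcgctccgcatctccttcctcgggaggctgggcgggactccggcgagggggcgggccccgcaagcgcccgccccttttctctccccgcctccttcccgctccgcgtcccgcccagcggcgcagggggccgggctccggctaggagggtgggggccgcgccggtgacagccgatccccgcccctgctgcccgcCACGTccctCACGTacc
CA12: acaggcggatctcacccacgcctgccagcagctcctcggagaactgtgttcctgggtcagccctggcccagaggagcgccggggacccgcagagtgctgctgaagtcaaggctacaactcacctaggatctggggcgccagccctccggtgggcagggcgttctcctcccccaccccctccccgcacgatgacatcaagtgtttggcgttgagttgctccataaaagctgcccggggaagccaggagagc
EGLN3: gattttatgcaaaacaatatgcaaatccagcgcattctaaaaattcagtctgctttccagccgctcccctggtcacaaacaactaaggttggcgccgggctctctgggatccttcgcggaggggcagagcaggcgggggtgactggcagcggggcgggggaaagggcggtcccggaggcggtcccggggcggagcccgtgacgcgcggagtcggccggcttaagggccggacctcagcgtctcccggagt
The LOX window holds 4 sites, that of BHLHE40 holds 3, that of PDK1 holds 2 and that of BNIP3 holds 1. Where a gene has several annotated starts, the window with the most sites is shown. The other PDK1 start, at the beginning of the annotated gene, has 0 sites, and the other 2 LOX windows hold 1 each. Such matches are letters in a window, and whether HIF occupied them was not measured. Of the genes with a promoter, ACGTG was in 8 of 10 called higher with BafA1 in rich medium and in 8 of 16 not called. For depletion under vehicle it was in 1 of 4 higher, 4 of 8 lower and 11 of 15 not called, and with depletion under BafA1 in 8 of 13 lower and 8 of 13 not called. With BafA1 in depleted medium ACGTG was in 3 of 4 higher, 0 of 2 lower and 13 of 21 not called.

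The libraries held 12969814 to 51649213 reads assigned to genes. The shallowest was replicate 1 of rich medium with vehicle, and the others held at least 33859998. It differed in more than depth, with 1.35% of reads from ribosomal RNA, against at least 4.5% in the others. Its Spearman correlation with replicates 2 and 3 of its group was 0.966 and 0.967, against 0.978 between those. The part of these differences in the results was not tested. Replicate 3 of rich medium with BafA1 stood apart: its Spearman correlation across genes was 0.985 to 0.99 with the depleted vehicle libraries and 0.985 with each of its own group. Results are therefore also given without both of these libraries. Intestinal epithelial markers were expressed throughout, at a summed 3260 to 3770 CPM (reads of a gene scaled to library size with TMM factors) in depleted medium with BafA1, 5230 to 6220 CPM there with vehicle, 6030 to 7600 CPM in rich medium with BafA1 and 7210 to 9930 CPM there with vehicle. In that list 9 of 10 genes were tested, and 2 stayed below 1 CPM in all libraries. The summed markers of fibroblasts reached at most 55.9 CPM, those of endothelium 14.1 CPM and those of leukocytes 4.65 CPM. Effective length, which shortens as fragments lengthen, fell short of gene length by a median of 176, 188 and 198 bases in depleted medium with BafA1 and 201 to 254 in the other 9 libraries. The part of fragment length and of the marker levels in the results was not tested, and in bulk RNA fewer cells of a type and less RNA per cell cannot be told apart.

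Across the list, BafA1 in rich medium raised many of these genes, depletion under vehicle moved as many up as down, and depletion under BafA1 lowered many. Among the 35 genes, 14 rose and 1 fell with BafA1 in rich medium (40% and 2.86%), where 6.15% and 4.78% of all tested genes were called higher and lower. With depletion under vehicle 8 rose and 8 fell, against 15.5% higher and 15.4% lower over all genes. With BafA1 in depleted medium 4 rose and 2 fell, against 5.5% and 5.91% of all genes. With depletion under BafA1 1 rose and 14 fell, against 10.5% and 13.6% of all genes. The interaction subtracts the BafA1 response in rich medium from the one in depleted medium, and it was called higher for 1 and lower for 5 of the 35, against 2.35% and 3.83%. The median log2 fold change of the 35 genes was 0.54 for BafA1 in rich medium, where that of all genes was 0.02. It was -0.17 for depletion under vehicle (all genes 0.05), 0.11 for BafA1 in depleted medium (all genes -0.03) and -0.34 for depletion under BafA1 (all genes 0.01). A call means an adjusted p under 0.05 in edgeR's quasi-likelihood test with Benjamini-Hochberg adjustment over all 18047 genes. The fit behind these counts did not pair replicates. With the replicate number as a block 9 rose and 9 fell with depletion under vehicle. All genes called there numbered 6504, against 5577 without the block. For BafA1 in depleted medium 7 rose and 2 fell with the block. All genes called there numbered 3014, against 2058 without it. Comparisons that use the same libraries, such as BafA1 in rich medium and depletion under vehicle, are not independent, and their values are only set side by side.

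**Figure D1:**
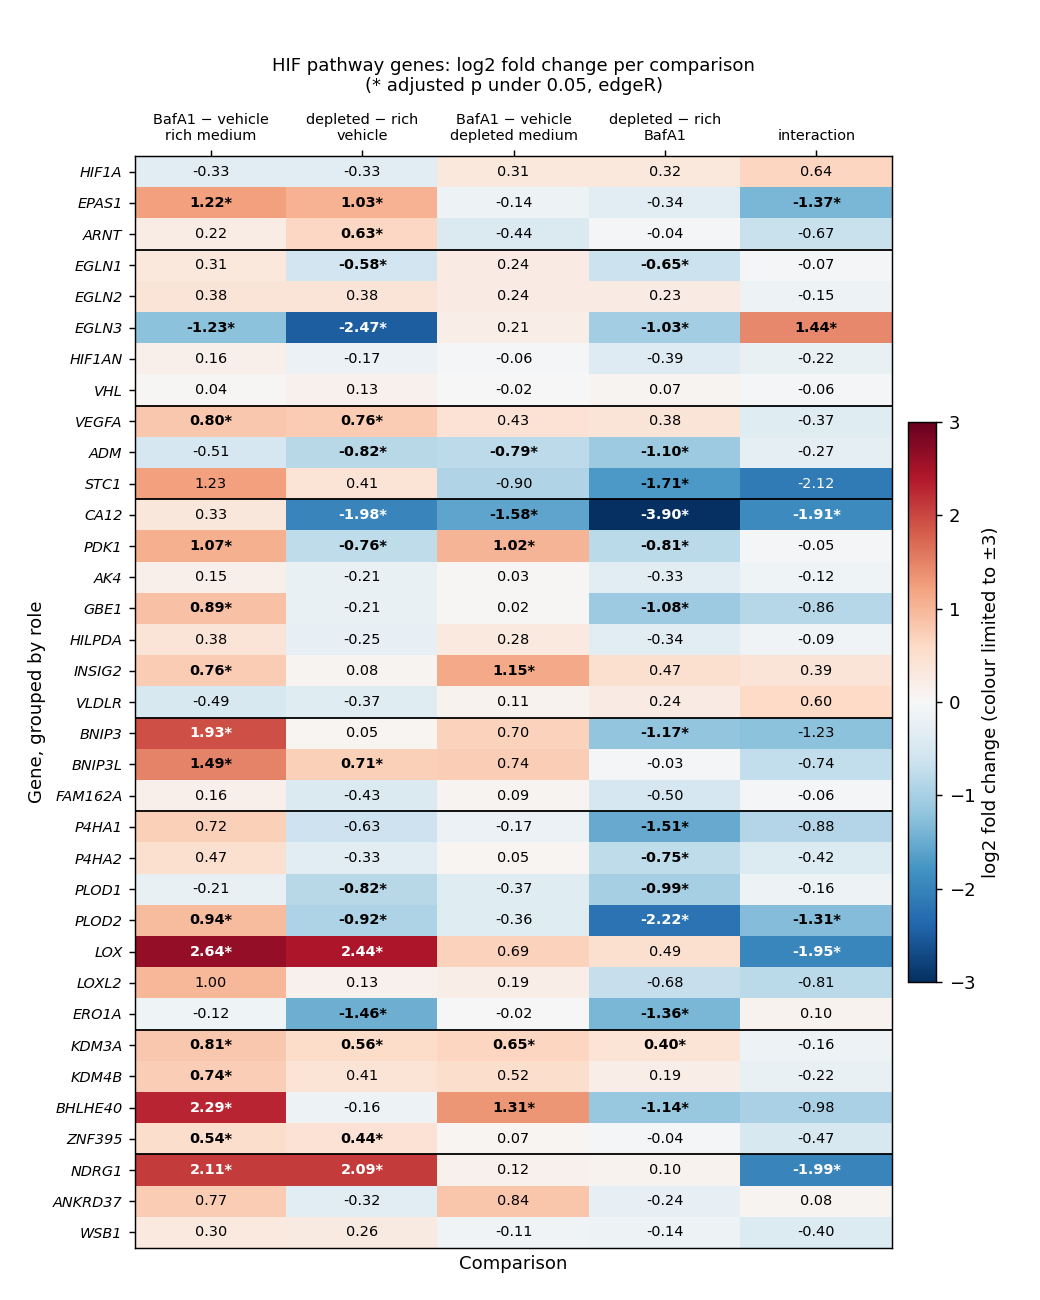
Log2 fold change of each of the 35 genes (rows, grouped by role) in the 5 comparisons (columns), with colour limited to 3 in either direction and an asterisk for an adjusted p under 0.05. The column for BafA1 in rich medium has 14 asterisks on higher values and 1 on a lower value, and the column for depletion under BafA1 has 1 and 14.

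Of the HIF subunits, EPAS1 rose with BafA1 in rich medium and with depletion under vehicle, ARNT rose with depletion under vehicle, and HIF1A was called in no comparison. Values are CPM in replicates 1, 2 and 3. EPAS1, the alpha subunit enriched in some epithelia and endothelium (chromosome 2, 46297407 to 46386697, GRCh38.p14), stood at 117, 99.9 and 114 CPM in depleted medium with BafA1 and at 121, 112 and 133 CPM there with vehicle. In rich medium EPAS1 stood at 141, 154 and 123 CPM with BafA1, against 59.9, 67.9 and 50.8 CPM with vehicle. The rich vehicle libraries lay below all others. The log2 fold change was 1.22 (SE 0.15, adjusted p = 0.00038) for BafA1 in rich medium and 1.03 (SE 0.15, adjusted p = 0.00019) for depletion under vehicle. BafA1 in depleted medium gave -0.14 (adjusted p = 0.61). The interaction was called at -1.37 (SE 0.21, adjusted p = 0.0046), and it was called in 18 of 18 alternative fits.

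HIF1A, the broadly expressed alpha subunit (chromosome 14, 61695513 to 61748258), stood at 352, 243 and 201 CPM in depleted medium with BafA1 and at 236, 217 and 188 CPM there with vehicle. In rich medium HIF1A stood at 222, 237 and 180 CPM with BafA1 and at 334, 255 and 215 CPM with vehicle. All 4 groups overlapped, and the log2 fold changes lay between -0.33 and 0.32 (adjusted p 0.27 to 0.40), with an interaction of 0.64 (adjusted p = 0.23). ARNT, the common partner, stood at 54, 42.2 and 43.4 CPM in depleted medium with BafA1 and at 67.3, 56.7 and 66.2 CPM there with vehicle. In rich medium ARNT stood at 40.7, 47.8 and 55.3 CPM with BafA1, against 43.6, 41.5 and 38.1 CPM with vehicle. It was highest in depleted medium with vehicle and rose with depletion there (log2 fold change 0.63, SE 0.16, adjusted p = 0.0069). ARNT with BafA1 in depleted medium gave -0.44 (adjusted p = 0.078, groups not overlapping). This fall passed in 2 of 13 alternative fits, that of only the 2 groups compared and that without both libraries that stood apart.

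Among the oxygen sensors EGLN3 and EGLN1 fell with depletion, and EGLN2, HIF1AN and VHL were not called. EGLN3, itself a HIF target (chromosome 14, 33924227 to 33951074), stood at 5.5, 5.06 and 6.38 CPM in depleted medium with BafA1 and at 4.17, 4.58 and 5.9 CPM there with vehicle. In rich medium EGLN3 stood at 10.6, 14.9 and 9.11 CPM with BafA1, against 28.9, 19.4 and 33 CPM with vehicle. It was the 1 gene of the list lower with BafA1 in rich medium, where the groups did not overlap (log2 fold change -1.23, SE 0.24, adjusted p = 0.0055). Depletion lowered it under vehicle (-2.47, SE 0.25, adjusted p = 2.1e-05) and under BafA1 (-1.03, SE 0.24, adjusted p = 0.0064). For BafA1 in depleted medium EGLN3 gave 0.21 (adjusted p = 0.65), and the interaction was 1.44 (SE 0.34, adjusted p = 0.025). Without the shallow library and rich BafA1 replicate 3 together, its BafA1 call in rich medium ended (-1.04, adjusted p = 0.051).

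EGLN1, the main oxygen sensor in most cells (chromosome 1, 231363756 to 231422287), stood at 65.6, 60.4 and 70.4 CPM in depleted medium with BafA1 and at 59.2, 49.8 and 57.3 CPM there with vehicle. In rich medium EGLN1 stood at 116, 117 and 75.3 CPM with BafA1 and at 99.7, 69.1 and 80.1 CPM with vehicle. The depleted libraries lay below the rich ones of the same treatment (log2 fold change -0.58, SE 0.18, adjusted p = 0.025 under vehicle, and -0.65, SE 0.18, adjusted p = 0.017 under BafA1). The call under vehicle ended without rich vehicle replicate 1 (-0.43, adjusted p = 0.089) or without depleted vehicle replicate 1, 2 or 3 (adjusted p 0.051 to 0.094). The call under BafA1 ended without replicate 1 or 2 of either BafA1 group (adjusted p 0.051 to 0.092). BafA1 in rich medium gave EGLN1 0.31, which was not called. In 1 of 13 alternative fits, that without the shallow library and rich BafA1 replicate 3 together, this rise passed (adjusted p = 0.028). EGLN2, a nuclear family member, stood at 86.9, 81.2 and 91 CPM in depleted medium with BafA1 and at 70.2, 70.3 and 79.6 CPM there with vehicle. In rich medium EGLN2 stood at 73.2, 76.4 and 70.5 CPM with BafA1 and at 39.7, 54.1 and 74.4 CPM with vehicle. It was not called, but without rich vehicle replicate 3 it passed for BafA1 in rich medium (0.65, adjusted p = 0.019) and for depletion under vehicle (0.65, adjusted p = 0.0082).

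HIF1AN, the asparaginyl hydroxylase, stood at 126, 124 and 135 CPM in depleted medium with BafA1 and at 137, 126 and 138 CPM there with vehicle. In rich medium HIF1AN stood at 171, 186 and 147 CPM with BafA1 and at 160, 145 and 146 CPM with vehicle. Its depleted BafA1 libraries lay below the rich BafA1 ones (log2 fold change -0.39, adjusted p = 0.051). This fall passed in 6 of 13 alternative fits, among them that without both libraries that stood apart. VHL, the substrate receptor of the ubiquitin ligase, stood at 95.3, 89.7 and 105 CPM in depleted medium with BafA1 and at 101, 90.4 and 103 CPM there with vehicle. In rich medium VHL stood at 98.6, 82.2 and 94.7 CPM with BafA1 and at 102, 76.9 and 90.1 CPM with vehicle. All 4 groups of VHL overlapped, with log2 fold changes between -0.02 and 0.13.

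The secreted signals went different ways. VEGFA, the main angiogenic growth factor (chromosome 6, 43770211 to 43786487), stood at 218, 233 and 193 CPM in depleted medium with BafA1 and at 143, 182 and 152 CPM there with vehicle. In rich medium VEGFA stood at 163, 165 and 165 CPM with BafA1, against 87.7, 105 and 89.8 CPM with vehicle. It rose with BafA1 in rich medium (log2 fold change 0.80, SE 0.15, adjusted p = 0.004) and with depletion under vehicle (0.76, SE 0.15, adjusted p = 0.0014). In depleted medium BafA1 gave VEGFA 0.43 (adjusted p = 0.068, groups not overlapping), which passed when replicate number was a block (0.44, adjusted p = 0.025). Both calls in rich medium and under vehicle held in 13 of 13 alternative fits.

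ADM, the vasodilator peptide adrenomedullin (chromosome 11, 10305073 to 10307397), was lower wherever it was called. It stood at 23.8, 28.8 and 23.7 CPM in depleted medium with BafA1 and at 36.5, 55.1 and 40.1 CPM there with vehicle. In rich medium ADM stood at 56, 62.5 and 44.8 CPM with BafA1 and at 59.3, 91.6 and 81.5 CPM with vehicle. ADM fell with depletion under BafA1 (log2 fold change -1.10, SE 0.20, adjusted p = 0.0013), with depletion under vehicle (-0.82, SE 0.20, adjusted p = 0.0057) and with BafA1 in depleted medium (-0.79, SE 0.20, adjusted p = 0.019). The last call ended without depleted vehicle replicate 2 (-0.59, adjusted p = 0.11) or depleted BafA1 replicate 1 or 3 (adjusted p = 0.071 and 0.088), and in rich medium ADM with BafA1 gave -0.51 (adjusted p = 0.11).

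STC1, the calcium-regulating hormone stanniocalcin, was near the limit of detection. It stood at 0.497, 0.497 and 0.507 CPM in depleted medium with BafA1 and at 0.833, 0.726 and 1.24 CPM there with vehicle. In rich medium STC1 stood at 0.866, 2.7 and 1.35 CPM with BafA1 and at 0.298, 0.663 and 1.05 CPM with vehicle. It fell with depletion under BafA1 (log2 fold change -1.71, SE 0.51, adjusted p = 0.023), a call that ended without rich BafA1 replicate 2 (-1.14, adjusted p = 0.18) or any 1 depleted BafA1 library (adjusted p 0.068 to 0.076).

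In the group for pH, mitochondrial fuel and lipids, 3 of 7 genes rose with BafA1 in rich medium (42.9%, against 6.15% of all genes). CA12 showed the largest fall of the list. CA12, a cell-surface carbonic anhydrase that hydrates CO2 (chromosome 15, 63321378 to 63381846), stood at 0.478, 0.615 and 0.417 CPM in depleted medium with BafA1 and at 1.36, 1.54 and 1.65 CPM there with vehicle. In rich medium CA12 stood at 5.54, 12.2 and 4.97 CPM with BafA1 and at 4.17, 6.71 and 6.97 CPM with vehicle. The depleted groups lay below the rich ones and depleted BafA1 below depleted vehicle. Depletion gave -3.90 under BafA1 (SE 0.39, adjusted p = 2e-05) and -1.98 under vehicle (SE 0.36, adjusted p = 0.00079). BafA1 in depleted medium gave CA12 -1.58 (SE 0.38, adjusted p = 0.015), a call that ended without depleted BafA1 replicate 1 or 3 (adjusted p = 0.055 and 0.071). The interaction was -1.91 (SE 0.51, adjusted p = 0.038). In rich medium BafA1 gave 0.33 (adjusted p = 0.57).

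PDK1, the kinase that shuts off pyruvate dehydrogenase (chromosome 2, 172555373 to 172724312), was higher with BafA1 in either medium and lower with depletion in either treatment. It stood at 30.2, 31.3 and 33.1 CPM in depleted medium with BafA1 and at 14, 14.3 and 18.5 CPM there with vehicle. In rich medium PDK1 stood at 49.6, 75.4 and 40.7 CPM with BafA1, against 28.9, 17.6 and 32.9 CPM with vehicle. BafA1 gave 1.02 in depleted medium (SE 0.24, adjusted p = 0.014) and 1.07 in rich medium (SE 0.24, adjusted p = 0.013). Depletion gave -0.81 under BafA1 (SE 0.24, adjusted p = 0.024) and -0.76 under vehicle (SE 0.24, adjusted p = 0.028). The interaction was -0.05 (SE 0.34). Each of these calls ended without some single library. Without rich BafA1 replicate 2 the BafA1 response in rich medium was 0.78 (adjusted p = 0.065) and depletion under BafA1 -0.52 (adjusted p = 0.17), and any 1 depleted BafA1 library left out also ended the second call (adjusted p 0.057 to 0.075). Depletion under vehicle lost its call without rich vehicle replicate 1 or 3 or depleted vehicle replicate 1 or 2 (adjusted p 0.068 to 0.12). BafA1 in depleted medium lost its call without depleted vehicle replicate 1 or 2 or depleted BafA1 replicate 3 (adjusted p 0.056 to 0.070).

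INSIG2, which retains the sterol sensor SCAP in the endoplasmic reticulum (chromosome 2, 118088471 to 118110997), stood at 34.4, 41.8 and 50 CPM in depleted medium with BafA1 and at 18.2, 23.2 and 15.7 CPM there with vehicle. In rich medium INSIG2 stood at 30.9, 38 and 21.9 CPM with BafA1, against 20.8, 18.1 and 15.1 CPM with vehicle. BafA1 libraries lay above vehicle libraries in each medium. The log2 fold change was 1.15 in depleted medium (SE 0.22, adjusted p = 0.0044) and 0.76 in rich medium (SE 0.22, adjusted p = 0.041). The call in rich medium ended without rich vehicle replicate 2 or 3 or rich BafA1 replicate 1 or 2 (adjusted p 0.057 to 0.17). GBE1, the glycogen branching enzyme, rose with BafA1 in rich medium (0.89, SE 0.22, adjusted p = 0.02) and fell with depletion under BafA1 (-1.08, SE 0.22, adjusted p = 0.0028). The rise of GBE1 ended without rich BafA1 replicate 1 or 2 (adjusted p = 0.064 and 0.10). AK4, a mitochondrial adenylate kinase, HILPDA, a lipid droplet protein that inhibits lipolysis, and VLDLR, a lipoprotein receptor, were called in no comparison, with log2 fold changes between -0.49 and 0.38 in the 4 pairwise ones.

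BNIP3 and BNIP3L, outer-membrane receptors that deliver mitochondria to autophagosomes, rose with BafA1 in rich medium. BNIP3 (chromosome 10, 131967684 to 131981923) stood at 26.6, 27.1 and 36.5 CPM in depleted medium with BafA1 and at 17.4, 14.8 and 23.2 CPM there with vehicle. In rich medium BNIP3 stood at 59.5, 92.2 and 51.6 CPM with BafA1, against 16.4, 11.2 and 25.8 CPM with vehicle. It was highest in rich medium with BafA1 (log2 fold change 1.93, SE 0.29, adjusted p = 0.0014). BafA1 in depleted medium gave BNIP3 0.70 (adjusted p = 0.13, groups not overlapping). Depletion under BafA1 gave -1.17 (SE 0.28, adjusted p = 0.0078), a call that ended without rich BafA1 replicate 2 (-0.89, adjusted p = 0.060). RefSeq places PPP2R2D over part of BNIP3, and the strand setting of the counting is not given in the sources used here.

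BNIP3L stood at 84.7, 76.5 and 100 CPM in depleted medium with BafA1 and at 58.8, 43.4 and 53.9 CPM there with vehicle. In rich medium BNIP3L stood at 93.7, 109 and 64.5 CPM with BafA1, against 44.4, 20.7 and 31 CPM with vehicle. BafA1 raised it in rich medium (log2 fold change 1.49, SE 0.25, adjusted p = 0.0025). In depleted medium the groups did not overlap at 0.74 (adjusted p = 0.062), which passed when replicate number was a block (0.76, adjusted p = 0.039). Depletion under vehicle raised BNIP3L by 0.71 (SE 0.25, adjusted p = 0.04), a call that ended without rich vehicle replicate 2 or 3 or depleted vehicle replicate 1 or 3 (adjusted p 0.086 to 0.13), with 0.47 without rich vehicle replicate 2. FAM162A, a mitochondrial cell death protein that overlaps WDR5B, was not called (-0.50 to 0.16). Its fall with depletion passed in 2 of 13 alternative fits under BafA1, without rich BafA1 replicate 3 or both libraries that stood apart. Under vehicle it passed in 1 of 13, without rich vehicle replicate 2.

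The 7 genes of collagen and protein maturation split within the group. LOX, the secreted enzyme that cross-links collagen (chromosome 5, 122063195 to 122078259), stood at 13.4, 26 and 27.8 CPM in depleted medium with BafA1 and at 9.88, 13.6 and 18 CPM there with vehicle. In rich medium LOX stood at 8.87, 22.8 and 16.1 CPM with BafA1, against 2.68, 2.2 and 2.8 CPM with vehicle. The rich vehicle libraries lay below all others, with the largest rise of the list for BafA1 in rich medium (log2 fold change 2.64, SE 0.36, adjusted p = 0.00077). Depletion under vehicle gave LOX 2.44 (SE 0.36, adjusted p = 0.0002), and BafA1 in depleted medium gave 0.69 (adjusted p = 0.20). The interaction was -1.95 (SE 0.48, adjusted p = 0.029). RefSeq places SRFBP1 over part of LOX.

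PLOD2, the lysyl hydroxylase of collagen telopeptides (chromosome 3, 146069440 to 146161184), stood at 28.9, 32.6 and 29.8 CPM in depleted medium with BafA1 and at 33.1, 49.9 and 34.5 CPM there with vehicle. In rich medium PLOD2 stood at 143, 196 and 87 CPM with BafA1, against 72.7, 79.3 and 69.5 CPM with vehicle. Depletion lowered it under BafA1 (log2 fold change -2.22, SE 0.24, adjusted p = 3.4e-05) and under vehicle (-0.92, SE 0.24, adjusted p = 0.0084). BafA1 raised PLOD2 in rich medium (0.94, SE 0.23, adjusted p = 0.019) and gave -0.36 in depleted medium (adjusted p = 0.36), with an interaction of -1.31 (SE 0.33, adjusted p = 0.032). The rise ended without rich vehicle replicate 1 (adjusted p = 0.053) or rich BafA1 replicate 2 (0.64, adjusted p = 0.096).

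P4HA1, a catalytic subunit of collagen prolyl hydroxylase (chromosome 10, 73007217 to 73096866), stood at 81.7, 114 and 90 CPM in depleted medium with BafA1 and at 88.5, 141 and 90.1 CPM there with vehicle. In rich medium P4HA1 stood at 268, 364 and 181 CPM with BafA1 and at 134, 204 and 157 CPM with vehicle. It fell with depletion under BafA1 (log2 fold change -1.51, SE 0.26, adjusted p = 0.00083). Under vehicle depletion gave -0.63 (adjusted p = 0.073), which passed when replicate number was a block (-0.65, adjusted p = 0.0044). BafA1 in rich medium gave P4HA1 0.72 (adjusted p = 0.084), which passed without rich vehicle replicate 2 (0.90, adjusted p = 0.046) or rich BafA1 replicate 3 (0.94, adjusted p = 0.039).

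ERO1A, the oxidase that supplies disulfide bonds in the endoplasmic reticulum (chromosome 14, 52639915 to 52695558), followed the medium. It stood at 117, 137 and 119 CPM in depleted medium with BafA1 and at 120, 148 and 109 CPM there with vehicle. In rich medium ERO1A stood at 314, 440 and 200 CPM with BafA1 and at 420, 363 and 252 CPM with vehicle. Every depleted library lay below every rich one. Depletion gave -1.36 under BafA1 (SE 0.25, adjusted p = 0.0015) and -1.46 under vehicle (SE 0.25, adjusted p = 0.00064), and BafA1 gave -0.02 in depleted medium and -0.12 in rich medium (adjusted p = 0.97 and 0.81). PLOD1, another lysyl hydroxylase, fell with depletion under BafA1 (-0.99, SE 0.25, adjusted p = 0.011) and under vehicle (-0.82, SE 0.25, adjusted p = 0.022). Its call under vehicle ended without rich vehicle replicate 2 (-0.52, adjusted p = 0.10) or depleted vehicle replicate 1 or 3 (adjusted p = 0.095 and 0.072), and that under BafA1 without rich BafA1 replicate 2 or depleted BafA1 replicate 3 (adjusted p = 0.068 and 0.054). P4HA2, the alternative prolyl hydroxylase subunit, was called lower with depletion under BafA1 (-0.75, SE 0.25, adjusted p = 0.039), and that call ended without rich BafA1 replicate 1 or 2 or depleted BafA1 replicate 1 or 3 (adjusted p 0.074 to 0.20). LOXL2, a lysyl oxidase relative, stayed under 2 CPM in all libraries and was not called, with 1.00 (SE 0.51, adjusted p = 0.23) for BafA1 in rich medium.

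The chromatin and transcription group was the 1 role group in which all genes, 4 of 4, rose with BafA1 in rich medium. Of all tested genes 6.15% were called higher there. The calls of KDM4B and ZNF395 depended on the fit, as given below. BHLHE40, a repressor that binds E-boxes (chromosome 3, 4979437 to 4985323), stood at 37.4, 28.4 and 32.2 CPM in depleted medium with BafA1 and at 11.9, 12 and 15.6 CPM there with vehicle. In rich medium BHLHE40 stood at 76.8, 99.2 and 39.7 CPM with BafA1, against 10.4, 17 and 16.3 CPM with vehicle. BafA1 libraries lay above vehicle libraries in both media, with 1.31 in depleted medium (SE 0.28, adjusted p = 0.007) and 2.29 in rich medium (SE 0.28, adjusted p = 0.00038). Depletion gave BHLHE40 -1.14 under BafA1 (SE 0.27, adjusted p = 0.0072) and -0.16 under vehicle (adjusted p = 0.70). The call under BafA1 ended without rich BafA1 replicate 2 (-0.84, adjusted p = 0.058).

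KDM3A, a histone H3 lysine demethylase of the 2-oxoglutarate dioxygenase family (chromosome 2, 86437044 to 86492716), was the 1 gene called higher in all 4 pairwise comparisons. It stood at 139, 126 and 124 CPM in depleted medium with BafA1 and at 85.9, 80.6 and 81.1 CPM there with vehicle. In rich medium KDM3A stood at 93.8, 110 and 90.4 CPM with BafA1, against 61.3, 52.4 and 54.5 CPM with vehicle. BafA1 gave 0.65 in depleted medium (SE 0.13, adjusted p = 0.0059) and 0.81 in rich medium (SE 0.13, adjusted p = 0.0023). Depletion gave KDM3A 0.40 under BafA1 (SE 0.13, adjusted p = 0.037) and 0.56 under vehicle (SE 0.13, adjusted p = 0.0054). The call of 0.40 ended without rich BafA1 replicate 1 or 3 or any 1 depleted BafA1 library (adjusted p 0.066 to 0.14), and without a low-count filter (adjusted p = 0.18).

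KDM4B, a related demethylase, rose with BafA1 in rich medium (0.74, SE 0.17, adjusted p = 0.013). When replicate number was a block KDM4B also passed for BafA1 in depleted medium (0.51, adjusted p = 0.036) and for depletion under vehicle (0.42, adjusted p = 0.048). ZNF395, a hypoxia-induced transcription factor, rose with BafA1 in rich medium (0.54, SE 0.14, adjusted p = 0.02) and with depletion under vehicle (0.44, SE 0.14, adjusted p = 0.024). Without rich BafA1 replicate 2 the BafA1 calls of KDM4B (adjusted p = 0.061) and ZNF395 (adjusted p = 0.083) in rich medium ended. Both calls also ended in the fit of only the 2 groups compared. The depletion call of ZNF395 ended without rich vehicle replicate 2 or depleted vehicle replicate 1 or 3 (adjusted p 0.052 to 0.11).

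NDRG1, a stress-responsive protein used as a marker of HIF and of growth arrest, had the smallest adjusted p of the list. It stood at 84.1, 78.9 and 81.3 CPM in depleted medium with BafA1 and at 83.3, 64.4 and 77.5 CPM there with vehicle. In rich medium NDRG1 stood at 64, 86.9 and 77.3 CPM with BafA1, against 15.9, 19 and 17.9 CPM with vehicle. The rich vehicle libraries lay far below the other 9, which overlapped. BafA1 in rich medium gave 2.11 (SE 0.16, adjusted p = 8.5e-06) and depletion under vehicle 2.09 (SE 0.16, adjusted p = 2.4e-06). BafA1 in depleted medium gave NDRG1 0.12 (SE 0.15, adjusted p = 0.68) and depletion under BafA1 0.10 (SE 0.15, adjusted p = 0.68). The interaction was -1.99 (SE 0.22, adjusted p = 0.00076). ANKRD37, a small ankyrin-repeat protein that overlaps LRP2BP and UFSP2, and WSB1, a substrate receptor of a ubiquitin ligase, were not called, with log2 fold changes between -0.32 and 0.84.

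**Figure D2:**
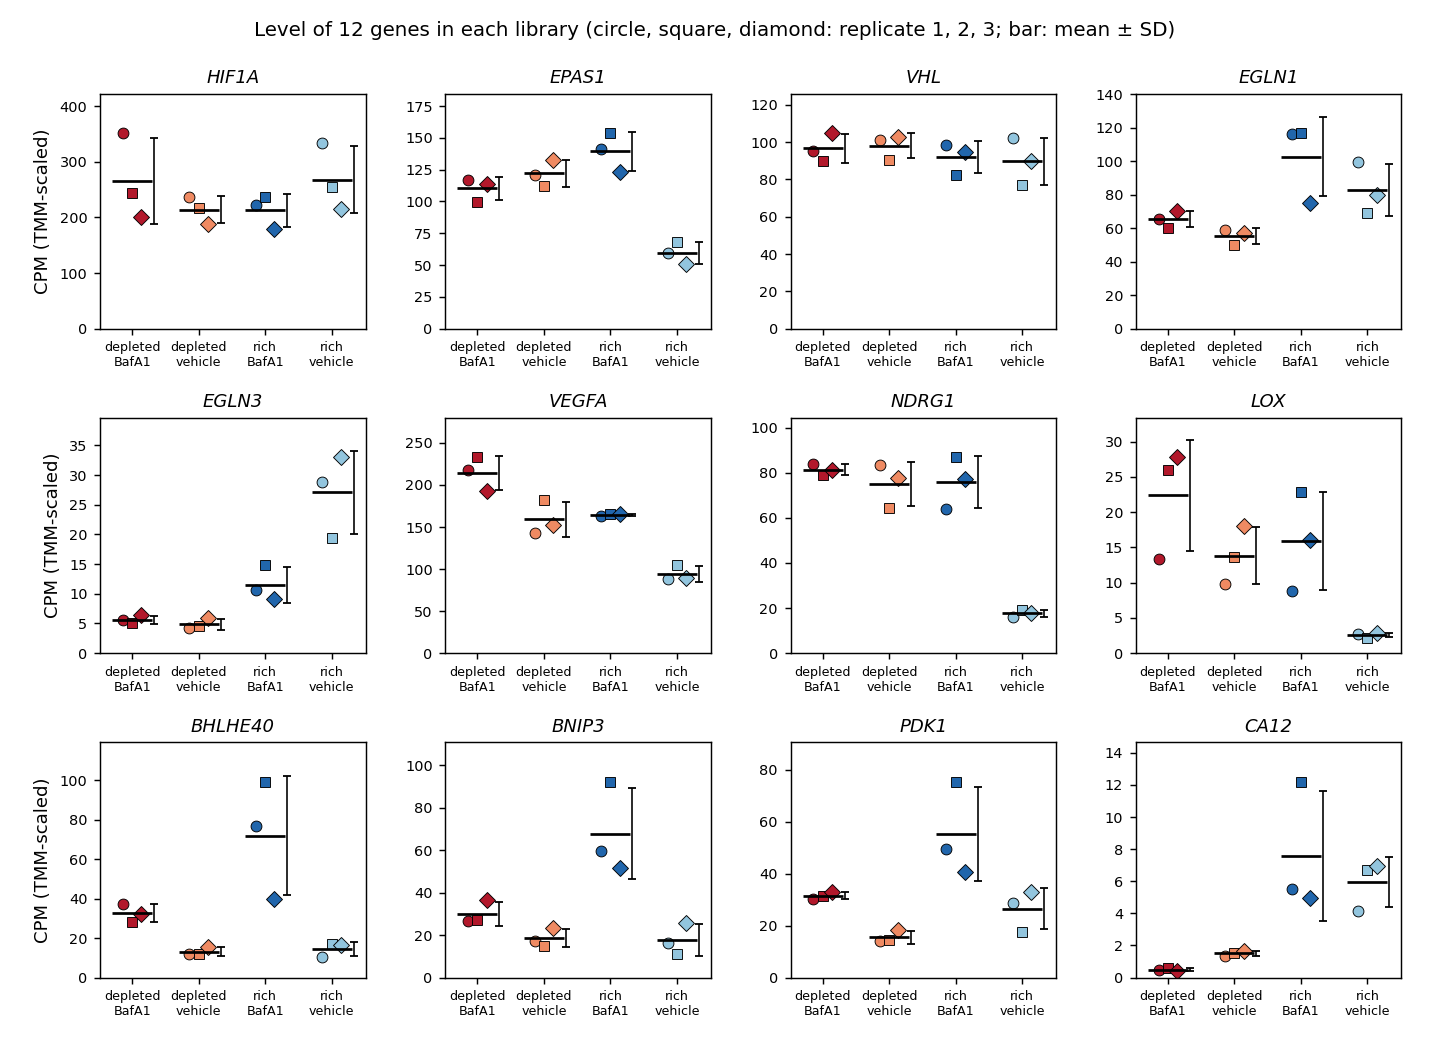
TMM-scaled CPM of 12 of the genes in each library, with 1 panel per gene, the 4 groups along the axis, a marker shape for each replicate, and a bar for mean ± SD (n = 3). EPAS1, NDRG1 and LOX are low in rich medium with vehicle only, EGLN3 is highest there, and BHLHE40 and BNIP3 are highest in rich medium with BafA1.

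The BafA1 comparisons in the 2 media share no library, but they come from 1 fit and are not independent. Same-numbered vehicle libraries of the 2 media deviated together (r = 0.156, 0.401 and 0.454 for numbers 1, 2 and 3). Their calls are therefore only set side by side. The 4 genes higher in depleted medium, PDK1, INSIG2, KDM3A and BHLHE40, were all among the 14 higher in rich medium, which is 4 of 4 and 4 of 14. The share of all genes called higher in both media was not counted. With the replicate number as a block VEGFA, BNIP3L and KDM4B, also among the 14, passed in depleted medium too, which made 7. DESeq2, the fit without a low-count filter and the fit without both libraries that stood apart also gave 7. EGLN3 was lower in rich medium alone, and ADM and CA12 in depleted medium alone. A call in 1 medium only does not show that the responses differ. The difference itself was called for EPAS1, NDRG1, LOX, PLOD2 and CA12, with a lower response in depleted medium, and for EGLN3, with a higher one. Of these, EPAS1 and NDRG1 were called in 18 of 18 alternative fits. EGLN3 was called in 12, LOX in 11, CA12 in 10 and PLOD2 in 9. Without a single library, the call of EGLN3 ended without rich BafA1 replicate 1 or 3, depleted vehicle replicate 1 or 2 or depleted BafA1 replicate 3 (adjusted p 0.056 to 0.078). That of LOX ended without replicate 2 or 3 of rich BafA1 or depleted vehicle, or replicate 1 or 2 of depleted BafA1 (adjusted p 0.055 to 0.081). That of CA12 ended without rich vehicle replicate 1, rich BafA1 replicate 2 or any 1 depleted library (adjusted p 0.061 to 0.11). That of PLOD2 ended without rich vehicle replicate 1, rich BafA1 replicate 1 or 2 or any 1 depleted library (adjusted p 0.052 to 0.081).

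**Figure D3:**
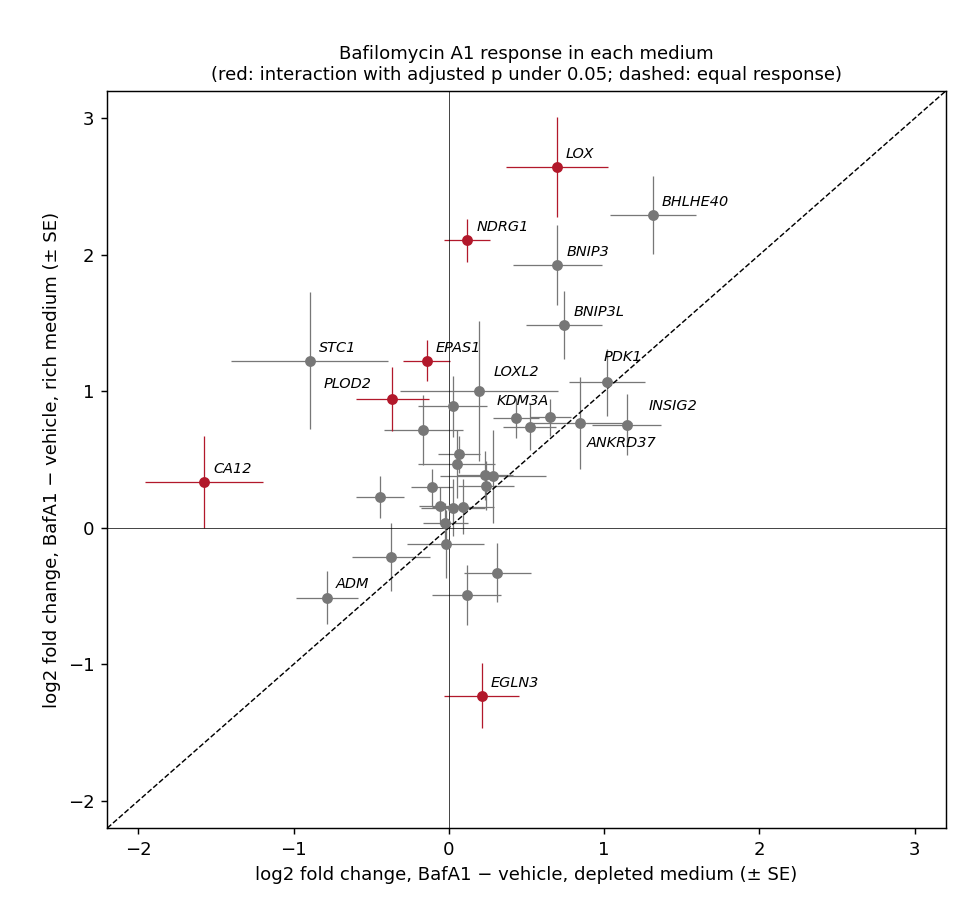
Log2 fold change for BafA1 against vehicle in depleted medium (horizontal) and rich medium (vertical) for the 35 genes, with SE bars, a dashed line of equal response, and red for an interaction with an adjusted p under 0.05. NDRG1, LOX, EPAS1, PLOD2 and CA12 lie above the dashed line, EGLN3 below it, and PDK1 near it.

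Counts over the list moved with single libraries and with the fit. Without the shallow rich vehicle replicate 1 and rich BafA1 replicate 3 together, 15 genes rose and 0 fell with BafA1 in rich medium, 8 rose and 8 fell with depletion under vehicle, 7 rose and 3 fell with BafA1 in depleted medium, and 0 rose and 16 fell with depletion under BafA1. Without rich BafA1 replicate 2 alone, 8 genes rose with BafA1 in rich medium and 7 fell with depletion under BafA1. Without depleted vehicle replicate 1, 5 fell with depletion under vehicle. No call of a fall with BafA1 in depleted medium was left without depleted BafA1 replicate 1 or 3, and 1 was left without depleted vehicle replicate 2. When replicate number was a block 7 rose there, and without a low-count filter 7. The rise with BafA1 in rich medium was called in 13 of 13 alternative fits for EPAS1, VEGFA, BNIP3, BNIP3L, LOX, KDM3A, BHLHE40 and NDRG1. The groups did not overlap, in the higher direction, for 17 of the 35 genes with BafA1 in rich medium, against 14.9% of all genes, and for 2 in the lower direction, against 11.1%. With depletion under vehicle the groups of 9 genes were higher and of 8 lower without overlap, against 23% and 18.2%. For BafA1 in depleted medium these were 11 and 5, against 19.8% and 20.1%. With depletion under BafA1 3 were higher and 19 lower without overlap, against 23.4% and 23.8% of all genes.

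Levels can be compared between genes per transcript length, as the deposited TPM values, which are scaled for length (mean ± SD, n = 3). In depleted medium with BafA1 the highest were VEGFA at 99 ± 26.1 TPM and HIF1A at 93.6 ± 38.9 TPM, and the lowest was CA12 at 0.113 ± 0.0385 TPM. In depleted medium with vehicle HIF1A at 60.7 ± 12.7 TPM and VEGFA at 60.3 ± 4.55 TPM led, and VEGFA lay above the next gene, WSB1 at 47.3 ± 5.39 TPM, without overlap. In rich medium with BafA1 P4HA1 led at 118 ± 46.3 TPM, and LOXL2 at 0.425 ± 0.0771 TPM was lowest. In rich medium with vehicle HIF1A at 97.3 ± 46.7 TPM, ERO1A at 96.7 ± 47.1 TPM and PLOD1 at 92.4 ± 47.7 TPM led and overlapped, and STC1 at 0.214 ± 0.0729 TPM was lowest. In that group neighbours in the order overlapped, except ANKRD37 at 2.82 ± 0.887 TPM above CA12 at 1.3 ± 0.376 TPM, and LOX at 0.732 ± 0.246 TPM above LOXL2 at 0.227 ± 0.18 TPM. The prolyl hydroxylases kept the order EGLN2, EGLN1, EGLN3 by mean in every group. EGLN2 stood at 58.5 ± 8.43, EGLN1 at 18.2 ± 2.83 and EGLN3 at 2.78 ± 0.255 TPM in depleted medium with BafA1, against 38.1 ± 5.53, 25.2 ± 12.3 and 13.7 ± 4.56 TPM in rich medium with vehicle. Of the alpha subunits HIF1A exceeded EPAS1 in mean TPM in every group, at 93.6 against 28.5 ± 4.48 TPM in depleted medium with BafA1 and 97.3 against 16.5 ± 7.15 TPM in rich medium with vehicle.

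**Figure D4:**
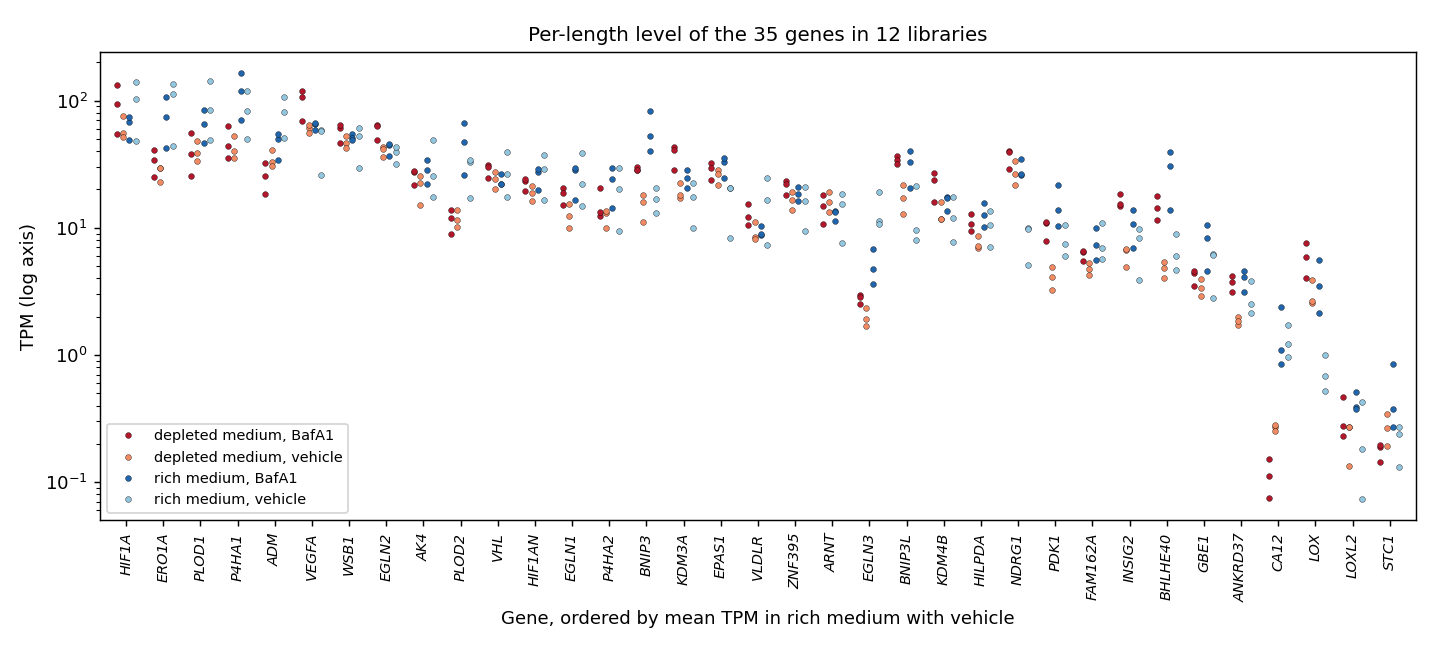
Deposited TPM of the 35 genes in all 12 libraries on a log axis, ordered by mean level in rich medium with vehicle and coloured by group. HIF1A and VEGFA lie among the highest in all groups, and CA12, LOXL2 and STC1 among the lowest.

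Other genes of the pathway were read from lists. Of 16 further HIF machinery genes 15 were tested, and 2 were called with BafA1 in rich medium, both higher (13.3%, against 6.15% of all genes). These were HIF3A, a further alpha subunit that can restrain HIF, at 1.02 (adjusted p = 0.01), and SIAH2, a ligase that degrades prolyl hydroxylases, at 0.66 (adjusted p = 0.012). With depletion under vehicle 5 rose and 2 fell (33.3% and 13.3%, against 15.5% and 15.4% of all genes), with HIF3A at 1.07 and SIAH2 at 0.51. The 2 that fell were RBX1 at -1.06 and ELOC at -0.94, both subunits of the VHL ubiquitin ligase. RBX1 stood at 20.7, 25.2 and 25.6 CPM in depleted medium with vehicle, against 36.5, 32.4 and 79.7 CPM in rich medium with vehicle. For ELOC these were 18.3, 14.5 and 19.3 CPM, against 39.9, 19.3 and 40.9 CPM. Calls outside the 35 genes were not followed in the fits without single libraries. SIAH2 was the 1 gene of this list called with BafA1 in depleted medium (1.14, adjusted p = 0.00038). That is 6.67% higher, near the 5.5% of all genes. With depletion under BafA1 4 rose and 2 fell (26.7% and 13.3%, against 10.5% and 13.6%), with RBX1 at -1.11 and SIAH2 at 1.00, and HIF3A had a called interaction of -1.32 (adjusted p = 0.025).

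Of 30 other HIF targets listed as outside glycolysis 27 were tested. The label is loose, since the list held the glucose transporter SLC2A3 and PFKFB4. It shared CITED2 with the HIF machinery list, and KDM4C and JMJD6 with the list of dioxygenases below. With BafA1 in rich medium 6 were called in edgeR, all higher (22.2%, against 6.15% of all genes), led by DDIT4, an inhibitor of mTORC1, at 2.94, PFKFB4, a regulator of fructose 2,6-bisphosphate, at 1.62 and ANKZF1 at 1.19. DESeq2 called 10 of them higher and 1 lower. With depletion under vehicle 6 rose and 7 fell (22.2% and 25.9%, against 15.5% and 15.4%), with DDIT4 at 2.61 and EDN1, the endothelin precursor, at -2.02. In depleted medium BafA1 raised 4 and lowered 2 (14.8% and 7.41%, against 5.5% and 5.91%), and with depletion under BafA1 3 rose and 8 fell (11.1% and 29.6%, against 10.5% and 13.6%), led by EDN1 at -2.83. The interaction of DDIT4 was -2.13 (adjusted p = 0.0049), a lower response in depleted medium.

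HIF targets of glycolysis fell with depletion. Of 19, all tested, 17 fell with depletion under BafA1 and 14 with depletion under vehicle, and each call was a fall (89.5% and 73.7%, against 13.6% and 15.4% of all genes). LDHA, which makes lactate, gave -2.88 under BafA1 and -2.68 under vehicle, and the glucose transporter SLC2A1 gave -3.12 and -2.10. BafA1 raised 3 in rich medium, ENO2 (1.65), ALDOC (1.25) and PGM1 (1.03), and 1 in depleted medium, HK2 (1.24), which is 15.8% and 5.26%, against 6.15% and 5.5% of all genes. DESeq2 called 4 higher in rich medium, and 2 higher and 1 lower in depleted medium. Of 9 HIF targets of the intestine, 2 rose with BafA1 in rich medium (22.2%, against 6.15% of all genes), the creatine kinase CKB (1.39) and the ecto-nucleotidase NT5E (1.28). Low counts limit NT5E, which stood at 0.744, 0.371 and 0.629 CPM in rich medium with vehicle. With depletion under vehicle 2 rose and 1 fell (22.2% and 11.1%, against 15.5% and 15.4%), with NT5E at 1.24, the iron exporter SLC40A1 at 0.91 and CKB at -1.29. In depleted medium BafA1 raised 1 and lowered 3 of the 9 (11.1% and 33.3%, against 5.5% and 5.91%), among them the antimicrobial peptide DEFB1 at 0.202, 0.0237 and 0.149 CPM with BafA1, against 2.21, 3.38 and 2.46 CPM with vehicle (log2 fold change -4.36, adjusted p = 0.00048). With depletion under BafA1 1 rose and 3 fell (11.1% and 33.3%, against 10.5% and 13.6%). CKB had a called interaction of -2.07 (adjusted p = 0.019).

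The hydroxylases need iron and 2-oxoglutarate, so a list of iron genes and a list of other enzymes that use 2-oxoglutarate were read. Iron and 2-oxoglutarate in the cells were not measured, and these transcripts do not give their amounts. Of 12 iron supply and iron-responsive genes, 0 were called with BafA1 in rich medium in edgeR or DESeq2, and 2 had an unadjusted p under 0.05. Of all genes, edgeR called 6.15% higher and 4.78% lower there. TFRC, the transferrin receptor whose mRNA is stabilised when iron is short, gave -0.06 (adjusted p = 0.90), and the ferritin subunits FTH1 and FTL gave 0.69 and 0.80 (adjusted p = 0.10 and 0.11). TFRC fell with depletion under vehicle (-0.86, adjusted p = 0.015), the 1 call there (8.33%, against 15.4% of all genes lower). BafA1 in depleted medium lowered 1, STEAP3 (8.33%, against 5.91%). Depletion under BafA1 raised 1, MCOLN1 (8.33%, against 10.5%). Of 20 other 2-oxoglutarate dioxygenases 19 were tested. With BafA1 in rich medium 1 rose (5.26%, against 6.15% of all genes), the demethylase KDM6B at 0.85, where DESeq2 also called 2 lower. Depletion under vehicle had 3 higher and 3 lower, 15.8% each way and near the 15.5% and 15.4% of all genes, with KDM6B at 0.87. With BafA1 in depleted medium 4 rose and 1 fell (21.1% and 5.26%, against 5.5% and 5.91%), or 4 and 3 in DESeq2. With depletion under BafA1 7 rose and 2 fell (36.8% and 10.5%, against 10.5% and 13.6%), led by JMJD6 at 0.90.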

How the data were processed

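The 35 genes, the gene lists and the alternatives were chosen with earlier results of these data known. RNA was depleted of ribosomal RNA and made into stranded libraries, per the labels' protocols. The deposited table of each sample holds estimated counts of reads per gene, of which 5.08% are not whole, and TPM values, per the file headers. A deposited series-wide table holds whole-number counts and served as an alternative. The submitters' processing notes name DRAGEN and GRCh38 without version or role, with an annotation release and strand setting not given in the sources used here. Coordinates and promoters are RefSeq's (GRCh38.p14), and no sequence is shown for VEGFA, NDRG1, BNIP3L, LOXL2, HILPDA, STC1, ZNF395 and VHL.

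Estimated counts were rounded, filtered with filterByExpr (minimum count 10, minimum total 15), scaled by TMM and tested in edgeR 4.0.16 (R 4.3.3) with a robust quasi-likelihood fit of all 12 libraries, 1 mean for each group and 8 residual degrees of freedom, with Benjamini-Hochberg adjustment over 18047 genes. Standard errors come from the log2 fold change and F. The procedure was also run on simulated counts of independent libraries. These had no pairing and no library that stood apart, so that run does not bear on either. Every library's value was given for the HIF machinery, VEGFA, CA12, ADM, NDRG1, BNIP3 and the 6 called genes with the largest changes per comparison. No library was a copy of another. Alternatives were other scaling, DESeq2 1.42.0, no filter, fits of only the groups compared, the series-wide table, the replicate number as a block, and leaving out each library or both that stood apart. Same-numbered libraries deviated together in depletion under vehicle (r = 0.156, 0.401 and 0.454 for numbers 1, 2 and 3) and in BafA1 in depleted medium (r = 0.161, 0.388 and 0.389), so the numbers were taken to pair those groups. This pairing was read from the data, since the labels give only a number. In BafA1 in rich medium (r = 0.111, 0.003 and 0.070) and depletion under BafA1 (r = -0.127, -0.050 and 0.054) the numbers were not taken to pair groups. The main fit had no block in any comparison, so its calls leave the pairing out. Calls that changed with the block are given beside them.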

Additional observations from a re-analysis of the deposited data

Results flagged for a closer look

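The BafA1 response differed between the media, by the interaction test in edgeR with adjustment over all genes, for 6 of the 35 genes. The difference, response in depleted medium minus response in rich medium on the log2 scale, was -1.99 for NDRG1 (adjusted p = 0.00076), -1.37 for EPAS1 (adjusted p = 0.0046), -1.95 for LOX (adjusted p = 0.029), -1.31 for PLOD2 (adjusted p = 0.032), -1.91 for CA12 (adjusted p = 0.038) and 1.44 for EGLN3 (adjusted p = 0.025). For NDRG1, EPAS1 and LOX the depleted vehicle libraries lay above the rich vehicle libraries, and for EGLN3, CA12 and PLOD2 below them. The depleted BafA1 libraries, which had the shortest fragments, enter these differences, and the part of fragment length was not tested. Without rich vehicle replicate 1 and rich BafA1 replicate 3 the calls of NDRG1, EPAS1, CA12 and PLOD2 remained. Those of LOX (-1.97, adjusted p = 0.080) and EGLN3 (1.25, adjusted p = 0.073) ended. That fit also called GBE1, BNIP3L and BHLHE40 lower, which made 7 lower and 0 higher. In the main fit these 3 genes gave -0.87, -0.74 and -0.98 and were not called.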

How the results depend on the processing

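DESeq2 size factors within edgeR shifted the median of all genes by at most 0.027 (log2) and changed no member count. With BafA1 in rich medium the calls over all genes were 1971, or 2971 with DESeq2, 496 in a fit of the 2 groups alone, 1010 without both libraries that stood apart and 1012 to 2656 without any 1 library. With BafA1 in depleted medium they were 2058, or 4259, 3444 and 878 to 1440 under the last 3 of these. With depletion under BafA1 they were 4352, or 6021 in the fit of 2 groups, 6005 without both libraries and 2346 to 4581 without any 1 library. For the interaction they were 1116, or 2070 with DESeq2, 1792 without a low-count filter and 393 to 1844 without any 1 library. Genes of the list higher with BafA1 in rich medium numbered 14, or 8 in the fit of 2 groups and 8 to 15 without any 1 library, and those lower 1, or 0 without both and 1 to 2 without any 1. Genes lower with depletion under vehicle numbered 8, or 5 to 8 without any 1 library. With BafA1 in depleted medium 4 were higher, or 7 with DESeq2, without a filter and without both libraries and 8 in the fit of 2 groups, and 2 lower, or 0 to 2 without any 1 library. With depletion under BafA1 1 was higher, or 2 with DESeq2 and in the fit of 2 groups, 0 without a filter or both libraries and 0 to 1 without any 1, and 14 lower, or 7 to 16 without any 1. The interaction was higher for 1, or 0 without both and 0 to 1 without any 1 library. It was lower for 5, or 8 without a filter, 7 without both and 2 to 7 without any 1 library. The cause of these changes was not tested.

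With the replicate number as a block the unpaired comparisons gained calls. BafA1 in rich medium had 2 lower members, with ADM at -0.50 (adjusted p = 0.033), and P4HA1 passed (0.69, adjusted p = 0.0075). Depletion under BafA1 had 2 higher members, with VEGFA at 0.38 (adjusted p = 0.031), and HIF1AN passed (-0.38, adjusted p = 0.035). The interaction called 1969 genes, P4HA1 among them (-0.84, adjusted p = 0.024). Same-numbered libraries correlated at -0.127 to 0.454 over 18 pairs, of which 10 were over 0.1. The block changed no other call of these genes beside those given with the results.

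Signs turned only for values with no call. Without any 1 library, BafA1 in rich medium gave VHL -0.056 to 0.136 and CA12 -0.187 to 0.564, and depletion under vehicle gave BNIP3 -0.199 to 0.446, with -0.002 without both libraries that stood apart. BafA1 in depleted medium gave VHL -0.085 to 0.034. Depletion under BafA1 gave NDRG1 -0.012 to 0.205, VHL -0.001 to 0.127 and ARNT -0.164 to 0.071, with 0.071 without both. The interaction gave EGLN1 -0.253 to 0.042, VHL -0.159 to 0.033 and EGLN2 -0.412 to 0.045, with 0.016 without both. Low counts limit STC1, LOXL2 and CA12, whose levels were near or under 1 CPM in at least 1 group.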
